A study of Homo sapiens with 8 samples.

Results

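The genes of the EGF receptor family were followed through 4 lists of chromatin binding peaks from PC-3 cells, an established human prostate cancer cell line. They comprised the 4 receptors EGFR, ERBB2, ERBB3 and ERBB4 and the 6 ligands EGF, TGFA, AREG, EREG, HBEGF and BTC, 10 of the 20136 protein-coding genes of the annotation. A peak was counted for a gene when its summit, the position of highest signal, lay in the gene body or within 50 kb of any annotated transcription start site (TSS) of that gene in the hg19 build. Counted once each, 5 of 2525 peaks of endogenous HoxC5 replicate 1, 0 of 170 peaks of endogenous HoxC5 replicate 2, 93 of 67196 peaks of overexpressed HoxC5 and 210 of 153620 peaks of overexpressed Pbx4 met this rule.

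HoxC5 and Pbx4 are homeodomain transcription factors, and the question of the profiling was where HoxC5 and its partner Pbx4 bind the genome. Endogenous HoxC5 was precipitated with an anti-HoxC5 antibody from PC-3 cells without an added transgene, labelled control, in 2 libraries, replicates 1 and 2. Overexpressed HoxC5 and overexpressed Pbx4 came from PC-3 cells that carried a Flag-tagged transgene of HOXC5 or of PBX4, with 1 library each. Their antibodies, against HoxC5 and against Pbx4, were taken from the paper's methods, which do not assign an antibody to each library. Each list was called on 1 library, the depth of each library is not known from the lists, and no test between conditions was made. Since each transgene is in 1 library, the transgene and the library cannot be told apart, and between Pbx4 and HoxC5 neither can the antibody. The lists hold no expression values with which to check the cells or the level of either factor. Fold enrichments are the peak caller's ratios of signal to local background and were compared within a list only.

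The receptors are cell surface tyrosine kinases that pair on ligand binding and pass growth and survival signals through the RAS-MAPK and PI3K-AKT cascades. ERBB2 binds no known ligand of its own, and ERBB3 has little kinase activity, so both act mainly in pairs with the other receptors. The ligands are made as membrane-anchored precursors that cell surface proteases release, and EGFR signalling is widely studied in prostate cancer cells.

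Of the 10 genes, 5 had a peak of endogenous HoxC5 in replicate 1 and none had one in replicate 2, beside 17.2% and 1.47% of all protein-coding genes. All 10 had at least 1 peak of overexpressed HoxC5 and at least 1 of overexpressed Pbx4, but so did 87.8% and 93.1% of all protein-coding genes, so a peak somewhere in the window said little about these genes. The windows ranged from 104 kb at AREG to 1213 kb at ERBB4, beside a median of 112 kb over all protein-coding genes. A longer window can hold more peaks, so densities per 100 kb are given beside the counts below. For endogenous replicate 1 the density was 0.195 over the joined windows, beside 0.146 over the summed windows of all protein-coding genes. The 5 of 10 genes with an endogenous peak were not tested against the 17.2%. The sites at which HoxC5 was found without a transgene, and the strongest site shared by overexpressed HoxC5 and Pbx4 of each other gene, are shown first, because the later results refer to them.

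The sequences below span up to 50 bp on either side of a summit on the plus strand of GRCh37 (hg19), 5′ to 3′, with the summit as base 51. Capitals mark 1 of 6 words found on either strand, namely the AP-1 word (TGACTCA or TGAGTCA), the Hox-Pbx words TGATTGAT and TGATTAAT, the Hox word TAATGA, the Meis word TGACAG, and TGATTCAT, which was added after the EGF and ERBB2 sites had been seen. The first 7 letters of TGATTCAT differ from the AP-1 word by 1 letter. The first 5 sequences are the endogenous HoxC5 sites of replicate 1, in which none of the 6 words was found. The ERBB3 sequence stops short on its right side, where transcribed sequence of the neighbouring gene ESYT1 begins.
EGFR intron 1, endogenous HoxC5, chr7:55141749-55141849: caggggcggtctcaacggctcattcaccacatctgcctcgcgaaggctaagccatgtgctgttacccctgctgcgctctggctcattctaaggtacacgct
ERBB2 window, endogenous HoxC5, chr17:37926397-37926497: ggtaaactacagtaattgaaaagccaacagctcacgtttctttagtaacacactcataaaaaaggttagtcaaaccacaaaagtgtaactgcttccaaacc
ERBB3 window, endogenous HoxC5, chr12:56511962-56512033: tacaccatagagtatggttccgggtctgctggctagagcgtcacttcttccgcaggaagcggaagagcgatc
TGFA intron 2, endogenous HoxC5, chr2:70725232-70725332: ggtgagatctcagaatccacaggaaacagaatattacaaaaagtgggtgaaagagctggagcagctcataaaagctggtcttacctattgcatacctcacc
EREG intron 1, endogenous HoxC5, chr4:75240348-75240448: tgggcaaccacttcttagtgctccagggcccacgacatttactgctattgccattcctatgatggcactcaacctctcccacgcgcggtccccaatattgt

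The next 7 sequences are centred on summits of overexpressed HoxC5 whose peak overlapped a Pbx4 peak. Those of ERBB4, EGF, AREG, HBEGF and BTC are the strongest such sites of genes without an endogenous peak, and those of ERBB2 and EREG were added after their values were seen because they lie at endogenous sites.
ERBB2 window, overexpressed HoxC5, chr17:37926504-37926604: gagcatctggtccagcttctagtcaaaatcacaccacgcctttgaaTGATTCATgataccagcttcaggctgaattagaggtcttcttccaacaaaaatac
ERBB4 intron 25, overexpressed HoxC5, chr2:212273303-212273403: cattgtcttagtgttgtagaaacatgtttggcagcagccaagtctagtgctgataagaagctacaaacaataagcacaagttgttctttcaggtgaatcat
EGF intron 1, overexpressed HoxC5, chr4:110842624-110842724: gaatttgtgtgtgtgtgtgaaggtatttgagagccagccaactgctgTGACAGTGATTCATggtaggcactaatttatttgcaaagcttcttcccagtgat
AREG window, overexpressed HoxC5, chr4:75339030-75339130: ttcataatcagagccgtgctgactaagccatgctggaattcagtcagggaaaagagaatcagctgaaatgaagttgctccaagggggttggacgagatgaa
EREG intron 1, overexpressed HoxC5, chr4:75240407-75240507: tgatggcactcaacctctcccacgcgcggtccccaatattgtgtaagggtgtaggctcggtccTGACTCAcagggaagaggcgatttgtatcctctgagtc
HBEGF window, overexpressed HoxC5, chr5:139697634-139697734: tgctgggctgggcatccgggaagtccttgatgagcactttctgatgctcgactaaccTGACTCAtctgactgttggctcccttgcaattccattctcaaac
BTC intron 2, overexpressed HoxC5, chr4:75694204-75694304: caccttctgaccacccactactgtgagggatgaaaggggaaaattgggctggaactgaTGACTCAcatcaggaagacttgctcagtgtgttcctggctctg
In the EGF sequence the Meis word and TGATTCAT adjoin without a gap, starting at −3 and +3 bp from the summit. TGATTCAT starts at −4 bp from the summit of the ERBB2 site, and the AP-1 word lies 13 bp to the right of the summit at EREG, 7 bp at HBEGF and 8 bp at BTC. A match of letters is a description of the sequence and not evidence of the factor that was bound.

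The 5 endogenous peaks lay in the windows of EGFR, ERBB2, ERBB3, TGFA and EREG, 1 in each. The EGFR peak (chr7:55141679-55141889) lay in intron 1, 55.1 kb downstream of the canonical TSS, the start of the transcript that the annotation marks as canonical. It had a fold enrichment of 7.09 and a −log10 q of 14.2 and ranked 155 of the 2525 peaks of its list by q, the highest place of the 5. The EREG peak (chr4:75240300-75240528) lay in intron 1, 9.54 kb from the TSS, with a fold enrichment of 6.26. The ERBB2 window held its peak (chr17:37926386-37926553) at +70.1 kb from the canonical TSS, within the neighbouring gene IKZF3, a lymphoid zinc finger factor. Its fold enrichment was 5.10. By q the EREG peak ranked 1098 and the ERBB2 window peak 1518 of the 2525. These 3 peaks overlapped a peak of both overexpression lists.

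The remaining pair of endogenous peaks had fold enrichments below the median of their list, which was 4.98. In TGFA the peak (chr2:70725177-70725417) lay in intron 2, 55.7 kb from the canonical TSS, had a fold enrichment of 3.99 and overlapped a Pbx4 peak but none of overexpressed HoxC5. In the ERBB3 window the peak (chr12:56511901-56512112) lay 22 bp from a TSS of ESYT1, a tether between the endoplasmic reticulum and the plasma membrane, and 38.1 kb from the canonical TSS of ERBB3. It had a fold enrichment of 2.97 and overlapped overexpressed HoxC5 but not Pbx4. For the peaks at IKZF3 and ESYT1 the nearest protein-coding TSS was that of another gene, so 3 of the 5 were nearest to a member. No endogenous peak lay within 1 kb of a TSS of any of the 10 genes.

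Overexpressed HoxC5 had a peak that overlapped 4 of the 5 endogenous peaks by at least 1 bp (80%, exact binomial interval by Clopper and Pearson at 95%, 28.4 to 99.5%), beside 76.4% of the whole replicate 1 list. For Pbx4 it was also 4 of 5, beside 70.8% of the list. The intervals cover counting error only, and at 5 peaks a departure from the list was not detectable. All 5 were absent from replicate 2, whose list held 170 peaks in all, so none of these sites was found in both endogenous libraries. Of the whole replicate 1 list only 5.35% overlapped a replicate 2 peak, so this absence is not particular to these genes.

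The median density over the 10 genes was 4.22 peaks per 100 kb for overexpressed HoxC5 and 9.69 for Pbx4, while the medians over protein-coding genes were 3.15 and 5.97. Over the joined windows the densities were 3.64 and 8.21, with ERBB4 making up 1213 of 2558 kb. The like values over the summed windows of all protein-coding genes were 3.53 and 6.47. HoxC5 density ran from 1.07 per 100 kb at ERBB4 to 12.6 at HBEGF, and Pbx4 density from 3.87 at ERBB4 to 20.6 at HBEGF. The receptors held 52 HoxC5 and 111 Pbx4 peaks and the ligands 41 and 99, in windows of 1758 and 799 kb. Most summits were distant. Of the 93 HoxC5 peaks, 14 lay within 1 kb of a TSS of a member, 20 at 1 to 10 kb, 50 at 10 to 50 kb and 9 farther away inside a gene body. The same classes held 15, 37, 124 and 34 of the 210 Pbx4 peaks. Within 1 kb of any protein-coding TSS lay 25 of the 93 HoxC5 peaks (26.9%), beside 23.1% of the whole list. For Pbx4 it was 22 of 210 (10.5%), beside 8.68%, so the distance of most summits is not particular to these genes.

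EGFR (chr7:55086710-55279321, plus strand), the receptor of EGF, TGFA and amphiregulin, had 24 HoxC5 and 47 Pbx4 peaks, more than 99.0% and 98.8% of protein-coding genes. At 8.52 and 16.7 peaks per 100 kb it exceeded 90.7% and 96.3% of genes in density. All of these peaks were nearer to a TSS of EGFR than to that of any other protein-coding gene. Overlap with Pbx4 was found for 22 of the 24 HoxC5 peaks, the most of any member, and 67.7% of the whole HoxC5 list overlapped a Pbx4 peak. The 2 peaks without overlap lay at −66 bp from the canonical TSS, with a fold enrichment of 5.60, and at −22.4 kb, with 5.36. The Pbx4 summit closest to a TSS lay in intron 22, 75 bp from an internal TSS, with 4.24.

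Intron 1 of EGFR, 123 kb long and 63.8% of the gene, held 13 of the 18 intronic HoxC5 peaks and 27 of the 36 intronic Pbx4 peaks. The strongest peaks were upstream. At −33.4 kb the HoxC5 peak had a fold enrichment of 15.3 and the Pbx4 peak 20.4, with summits at 55053283 and 55053264 on chromosome 7. A second pair lay about 10 kb closer to the gene, at −22.9 kb for HoxC5 with 15.1 and −22.8 kb for Pbx4 with 16.8. The overexpressed HoxC5 peak at the endogenous site of intron 1 had a fold enrichment of 14.0, the strongest of the HoxC5 peaks inside the gene. Farther into the intron, at 113.8 kb, a Pbx4 peak reached 19.3. The AP-1 word lay within 50 bp of 5 HoxC5 and 9 Pbx4 summits at EGFR.

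**Figure D1:**
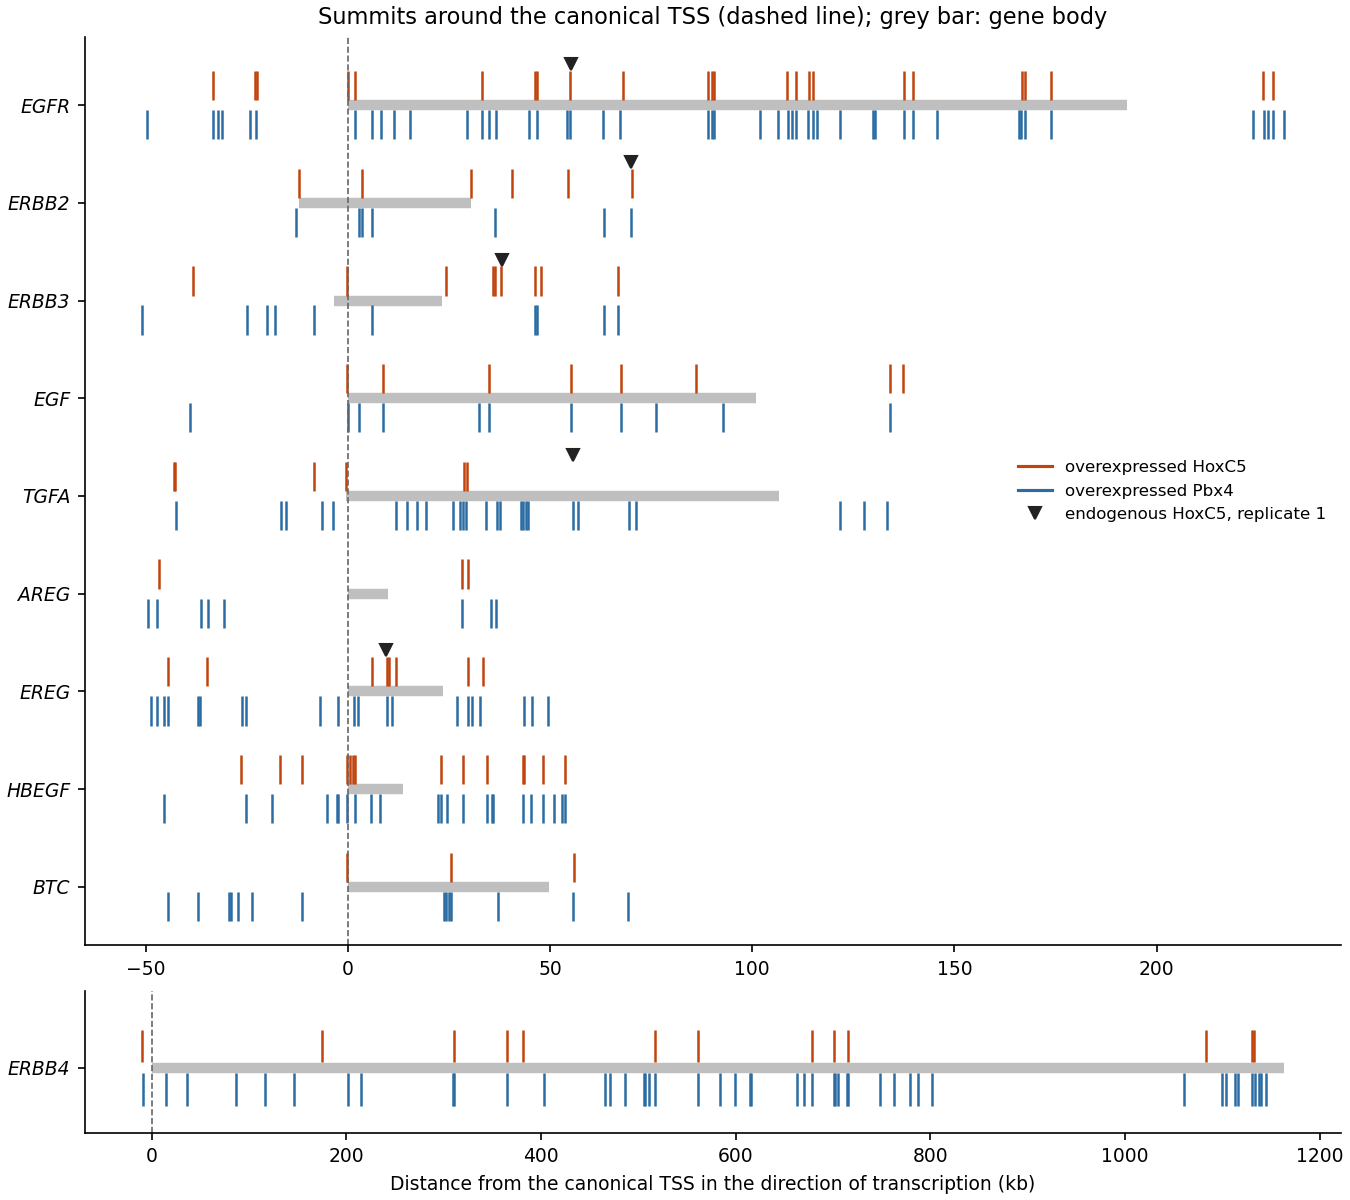
Distance in kb from the canonical TSS, in the direction of transcription, of each summit of overexpressed HoxC5 (above the bar) and Pbx4 (below it); triangles are endogenous replicate 1 summits, grey bars are gene bodies, and ERBB4 has its own axis because of its length. Most HoxC5 summits of EGFR and EGF have a Pbx4 summit close by, and AREG has no summit in its body.

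ERBB2 (chr17:37844167-37886679, plus strand), the ligandless co-receptor amplified in some breast cancers, had 6 HoxC5 and 7 Pbx4 peaks in a window crowded with other genes. Only 1 of the 6 HoxC5 peaks had ERBB2 as the nearest protein-coding gene, in intron 1 at 3.49 kb from the canonical TSS and 363 bp from another TSS, with a fold enrichment of 9.31. It overlapped a Pbx4 peak of 6.80, whose summit lay 348 bp from that TSS. For Pbx4, 4 of the 7 peaks were nearest to ERBB2. The HoxC5 summit closest to any TSS of ERBB2, at −82 bp with 5.05, lay 18 bp from a TSS of PGAP3. Neither list had a summit within 1 kb of the canonical TSS of ERBB2. The strongest HoxC5 peak of the window was the endogenous site inside IKZF3, where the fold enrichment was 23.2 for overexpressed HoxC5 and 14.3 for Pbx4. Its HoxC5 summit (37926554) was 7924 bp from the nearest of the annotated TSSs of IKZF3 and 41.9 kb from the nearest TSS of ERBB2. The count of this peak for ERBB2 thus rests on the 50 kb reach.

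ERBB3 (chr12:56470583-56497289, plus strand), the kinase-impaired neuregulin receptor, had 9 HoxC5 and 10 Pbx4 peaks. Most belonged by distance to neighbours, and 1 of the 9 HoxC5 peaks and 4 of the 10 Pbx4 peaks were nearest to ERBB3. The HoxC5 peak at −132 bp from the canonical TSS had a fold enrichment of 5.03 and did not overlap a Pbx4 peak. The closest Pbx4 summit, in intron 3, lay at −261 bp from another TSS with 6.40. The stronger HoxC5 peaks of the window lay at the promoters of other genes, with 9.15 at RPS26 and 8.48 at RPL41, both ribosomal protein genes, and 7.87 at ESYT1. The strongest Pbx4 peak, with 16.4, lay 2996 bp from the nearest annotated TSS of IKZF4. Of the 9 HoxC5 peaks 2 overlapped Pbx4, beside 67.7% of the whole HoxC5 list. Among list peaks within 1 kb of a protein-coding TSS it was 40.6%.

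ERBB4 (chr2:212240442-213403565, minus strand), a neuregulin receptor that also binds some EGF-like ligands, is the longest member at 1163 kb. It had 13 HoxC5 and 47 Pbx4 peaks, but its densities of 1.07 and 3.87 per 100 kb exceeded those of only 23.1% and 31.4% of genes. Apart from 1 upstream peak in each list, all were intronic, and none lay within 1 kb of a TSS. The closest to a TSS were at −9759 bp for HoxC5, with a fold enrichment of 7.08, and at 5939 bp for Pbx4, with 5.65. The strongest lay at one site deep in intron 25, 1130 kb from the canonical TSS, with a fold enrichment of 13.6 for HoxC5 and 14.8 for Pbx4. Of the 13 HoxC5 peaks, 7 overlapped Pbx4, among them the 3 in intron 3. HoxC5 peaks without a Pbx4 partner here included strong ones, with 12.1 in intron 20 and 11.7 in intron 25.

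Among the ligands, EGF (chr4:110834039-110934922, plus strand) held the strongest HoxC5 peak of all members. It lay in intron 1 (chr4:110842541-110842809), 8.64 kb from the canonical TSS, with a fold enrichment of 47.2, which ranked 8 of the whole overexpressed HoxC5 list. Pbx4 had a peak of 13.3 there. No peak of either endogenous library was found at this site or elsewhere in the EGF window. EGF had 8 HoxC5 and 11 Pbx4 peaks, and 6 of the 8 overlapped Pbx4. Both factors were found at its canonical TSS, HoxC5 at −120 bp with a fold enrichment of 6.43 and Pbx4 at +4 bp with 12.3. The HoxC5 summit closest to any TSS was in intron 14, at −114 bp from an internal one, with 4.21. The strongest Pbx4 peak of the gene, 17.9 in intron 18, had no HoxC5 partner.

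TGFA (chr2:70674416-70781325, minus strand) encodes transforming growth factor alpha, a ligand of EGFR. It had 6 HoxC5 peaks, at a density of 3.18 per 100 kb close to the median gene, but 27 Pbx4 peaks, a density of 14.3 that exceeded 92.8% of genes. Of the Pbx4 peaks 11 lay in intron 1 and 8 in intron 2. The HoxC5 peak at the promoter, at −373 bp from the canonical TSS and −6 bp from another, had a fold enrichment of 6.32 and no Pbx4 partner. The strongest HoxC5 peak lay at −42.6 kb with 8.94, where Pbx4 had 10.9. The strongest Pbx4 peak, with 10.9 as well, lay in intron 1, 11.9 kb from the canonical TSS, and the one closest to a TSS lay at −3240 bp with 4.00.

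AREG and EREG, which encode amphiregulin and epiregulin, neighbour each other on chromosome 4, and their windows shared 37.3 kb, in which 1 HoxC5 and 5 Pbx4 peaks were counted for both. EREG (chr4:75230862-75254466, plus strand) had 8 HoxC5 and 21 Pbx4 peaks, and its Pbx4 density of 17.9 per 100 kb exceeded 97.3% of genes. At the endogenous site in intron 1 overexpressed HoxC5 had a fold enrichment of 11.7, the highest HoxC5 value of the window. The strongest Pbx4 peak was another one of intron 1, 2.58 kb from the TSS, with 13.5 and no HoxC5 partner. No summit of either list lay within 1 kb of a TSS of EREG. The closest lay at −5321 bp for HoxC5, with 6.61, and at 1525 bp for Pbx4, with 4.62.

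AREG (chr4:75310853-75320722, plus strand) had 3 HoxC5 and 8 Pbx4 peaks, none of them in the gene body. The strongest, with a fold enrichment of 5.96 for HoxC5 and 12.6 for Pbx4, lay at +28.2 and −34.6 kb from the canonical TSS. The HoxC5 one was also the closest to a TSS of AREG, at 24724 bp, and the closest Pbx4 summit, at 24638 bp, had 9.23. The absence of peaks in the body cannot be read as absence of binding. Of the stretches of the AREG body as long as 1 sequencing read, 85.1% occur more than once in the genome, a second copy, AREGB, lies at chr4:75480629-75490486 and had 0 peaks in all 4 lists, and the authors kept only reads with a mapping quality of at least 10. The share of such stretches was 36.2% over the AREG window, 13.5% over that of EREG and at most 3.14% over those of the other members.

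HBEGF (chr5:139712428-139726188, minus strand), heparin-binding EGF-like growth factor, had the highest densities, with 14 HoxC5 and 23 Pbx4 peaks and 12.6 and 20.6 per 100 kb, above 97.8% and 98.8% of genes. Only 5 of the HoxC5 peaks and 10 of the Pbx4 peaks were nearest to HBEGF, and most of the other HoxC5 peaks were nearest to PFDN1, which encodes a prefoldin subunit. At the HBEGF promoter HoxC5 had peaks at −234 and +438 bp with fold enrichments of 4.28 and 4.47, below the list median of 6.17. Pbx4 had a peak of 6.57 at −281 bp. The strongest HoxC5 peak lay 28.5 kb downstream of the TSS with 9.06, and the strongest Pbx4 peak, with 19.6, lay 2334 bp from a TSS of PFDN1.

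BTC (chr4:75669969-75719733, minus strand), which encodes betacellulin, a ligand of EGFR and ERBB4, had 3 HoxC5 and 14 Pbx4 peaks. HoxC5 had a peak at −191 bp from the canonical TSS with a fold enrichment of 6.58 and no Pbx4 partner. In intron 2, at 25.5 kb, HoxC5 had its strongest peak of the gene with 8.42, which overlapped a Pbx4 peak. The strongest Pbx4 peak, with 9.68, lay in the same intron, 677 bp from a TSS within the gene, and the closest, with 9.32, lay at −132 bp from it.

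**Figure D2:**
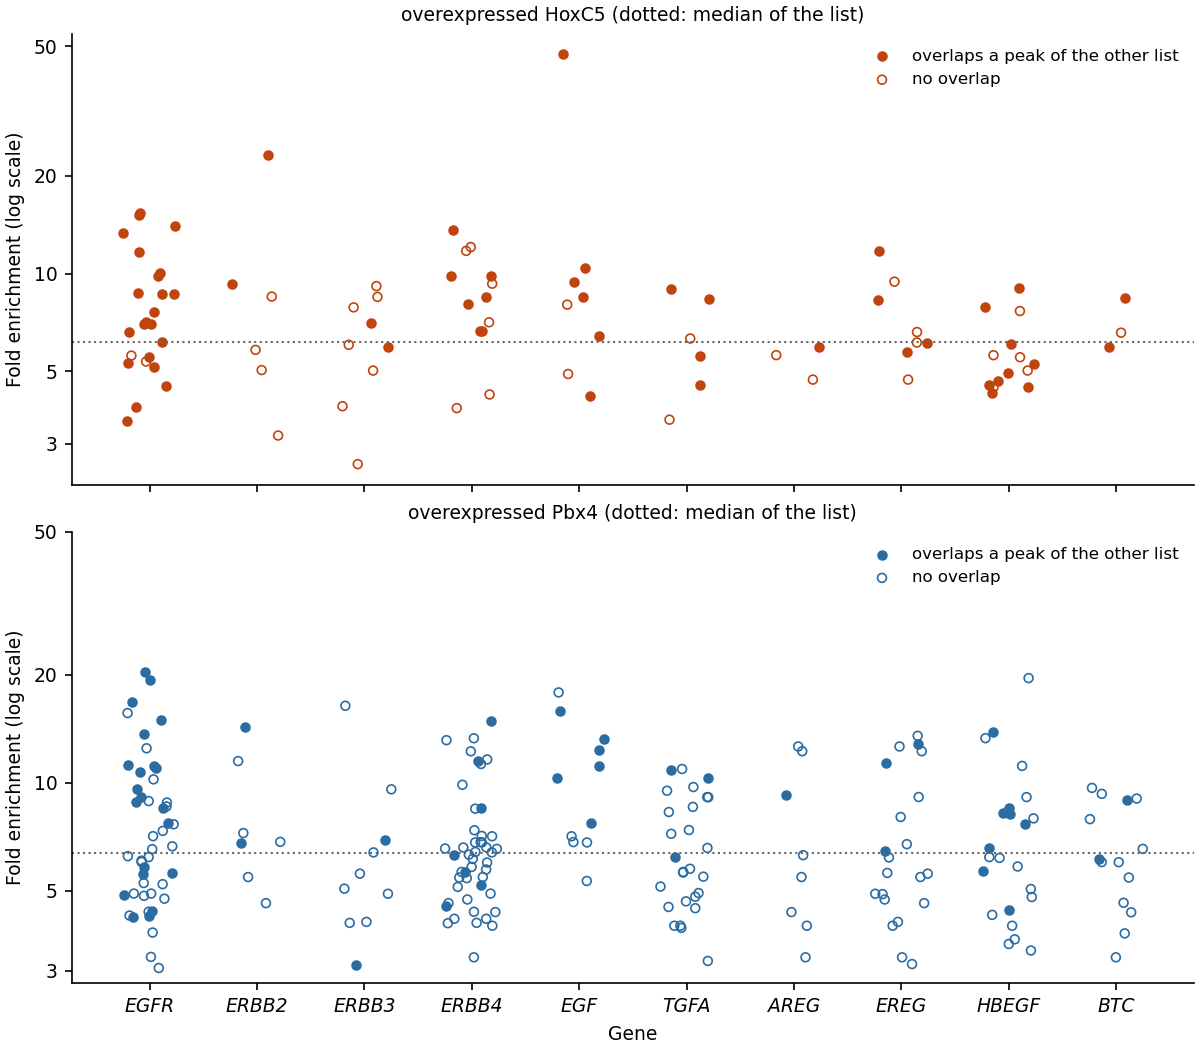
Fold enrichment on a log scale of each peak by gene for overexpressed HoxC5 (top) and Pbx4 (bottom); filled points overlap a peak of the other list, open points do not, and the dotted line is the median of the whole list (6.17 for HoxC5 and 6.36 for Pbx4). The EGF intron 1 peak (47.2) and the site in the ERBB2 window (23.2) stand above all other HoxC5 points.

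At promoters, 6 of the 10 genes had a HoxC5 summit within 1 kb of the canonical TSS, namely EGFR, ERBB3, EGF, TGFA, HBEGF and BTC, beside 49.5% of genes that have a canonical TSS in the annotation. For Pbx4 it was 2 of 10, EGF and HBEGF, beside 28.2%. When any annotated TSS was allowed, it was 7 of 10 for HoxC5, beside 55% of genes, and 6 of 10 for Pbx4, beside 42%. These counts lie near their backgrounds and are not a result about the family. At EGFR, ERBB3, TGFA and BTC the HoxC5 peak at the canonical TSS overlapped no Pbx4 peak. Over the whole list 40.6% of HoxC5 peaks within 1 kb of a protein-coding TSS overlapped one, so this is not particular to these promoters.

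In all, 59 of the 93 HoxC5 peaks (63.4%, interval 52.8 to 73.2%) overlapped a Pbx4 peak, beside 67.7% of the whole list. Of the 210 Pbx4 peaks, 55 (26.2%, interval 20.4 to 32.7%) overlapped overexpressed HoxC5, beside 28.5% of that list. Both shares held the value of the list within their interval. Of HoxC5 peaks within 1 kb of a protein-coding TSS, 11 of 25 (44%, interval 24.4 to 65.1%) overlapped Pbx4, and of those farther away 48 of 68 did (70.6%, interval 58.3 to 81.0%). The same order was found over the whole list, with 40.6% and 75.8%. Joined into sites, the peaks of the overexpression lists gave 55 sites with both factors, 34 with HoxC5 alone and 155 with Pbx4 alone, and the Pbx4 list was the longer one.

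**Figure D3:**
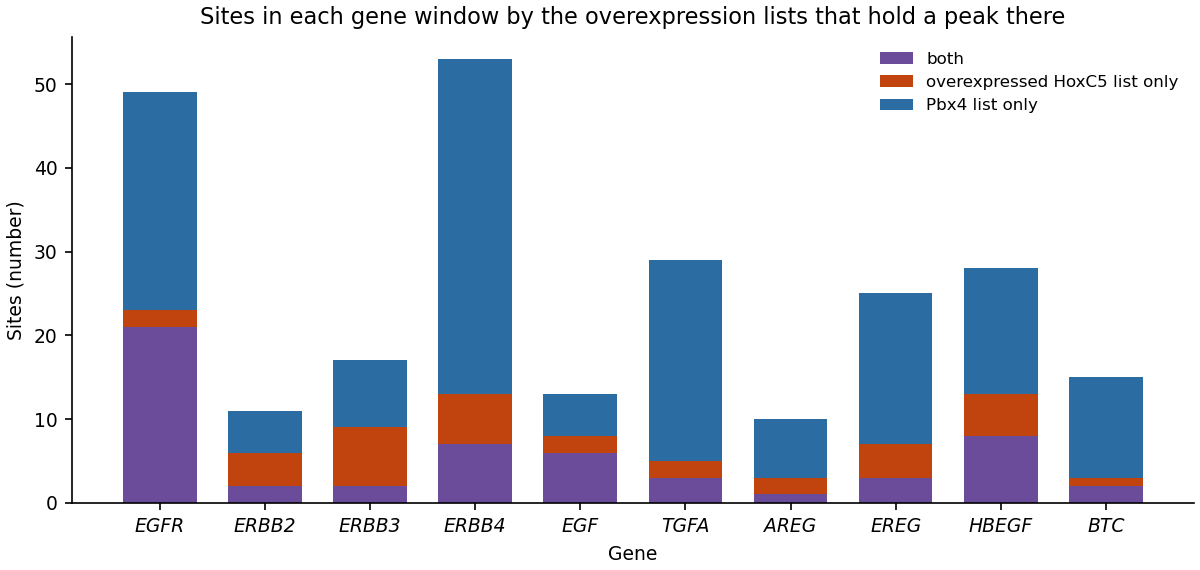
Number of sites in each gene window, after peaks that overlap were joined, that held a peak of both overexpression lists, of overexpressed HoxC5 alone or of Pbx4 alone. At EGFR 21 of the 23 sites with HoxC5 also held Pbx4, whereas at ERBB3 it was 2 of 9, a difference that was not tested. Over the whole HoxC5 list 40.6% of peaks within 1 kb of a protein-coding TSS overlapped Pbx4, and 75.8% of those farther away.

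Shared peaks were the stronger ones. The median fold enrichment of HoxC5 peaks was 7.09 where Pbx4 overlapped and 5.72 where it did not, and that of Pbx4 peaks was 8.50 with HoxC5 and 6.01 without. The whole lists gave 6.61 against 5.63 and 8.23 against 5.89, so the same order held over all peaks.

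The AP-1 word, the site of FOS and JUN factors, lay within 50 bp of 19 of the 93 HoxC5 summits (20.4%, interval 12.8 to 30.1%) and 36 of the 210 Pbx4 summits (17.1%, interval 12.3 to 22.9%). The whole lists had it at 20.5% and 18.5%. In windows 1 kb to the right of the same summits it was found at 0 of 93, which allows up to 3.89% by the same interval, and at 3 of 210 (1.43%). Among HoxC5 peaks it was present at 17 of 59 (28.8%) that overlapped Pbx4 and at 2 of 34 (5.88%) that did not, beside 26.7% and 7.51% over the list. The members with the most were EGFR, with 5 HoxC5 summits, and EGF and EREG, with 3 each. None of the 5 endogenous summits had it within 50 bp, beside 16.0% of the replicate 1 list, and 40% of them had it within 100 bp. The Hox-Pbx words TGATTGAT and TGATTAAT were each found at 1 HoxC5 and 1 Pbx4 summit, near the shares of the whole lists, which were 0.796% and 0.807% for HoxC5 and 0.469% and 0.691% for Pbx4. The Meis word lay at 24 Pbx4 summits (11.4%, beside 10.4% of the list) and 7 HoxC5 summits (7.53%, beside 7.88%). The Hox word TAATGA lay at 16 Pbx4 summits (7.62%) and 6 HoxC5 summits (6.45%), and 1 kb away at 21 (10.0%) and 10 (10.8%). Over the whole lists the summits had it more often than the flanks, at 7.61% against 6.40% for Pbx4 and 8.41% against 5.72% for HoxC5.

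TGATTCAT, the word seen at the EGF and ERBB2 sites, was found at 3 of the 93 HoxC5 summits (EGF, ERBB2 and AREG windows). It was also found at 9 of the 210 Pbx4 summits, at EGFR, ERBB2, ERBB4, EGF, TGFA and BTC. The whole lists had it at 3.76% for HoxC5 and 3.22% for Pbx4, so these counts lie near the background. Over the whole overexpressed HoxC5 list it lay at 26 of the 100 summits of highest fold enrichment (26%, interval 17.7 to 35.7%), a class that includes the EGF peak. The share was 12.7% among the next 900 summits, which include the ERBB2 peak at rank 236, and 3.61% among the rest. For Pbx4 the same classes gave 6%, 5.11% and 3.20%. Windows 1 kb away held it at 0.448% for HoxC5 and 0.513% for Pbx4. Since the word was picked from sites of high fold enrichment, these shares are a description with no test.

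**Figure D4:**
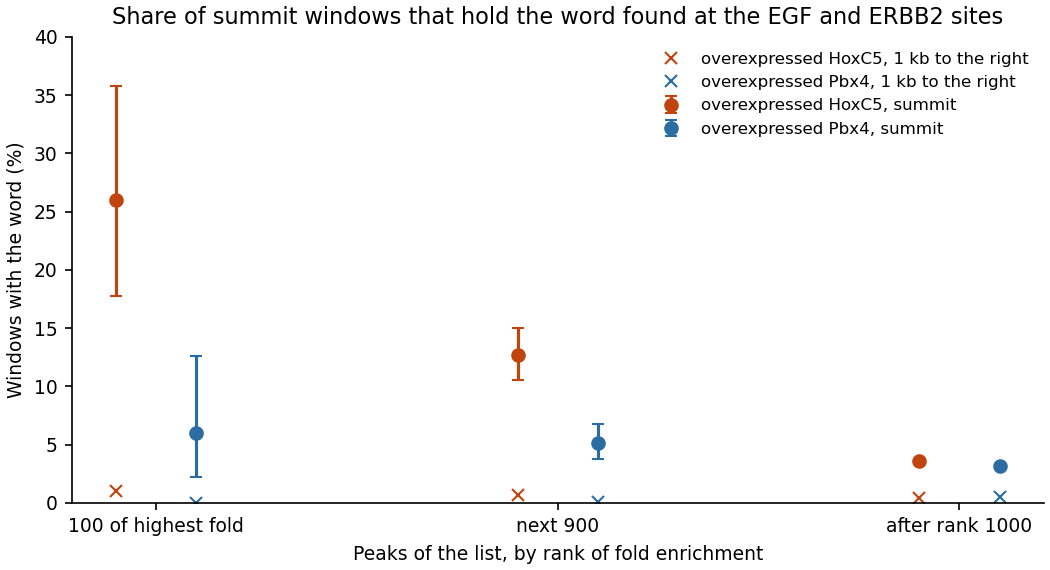
Share in percent of windows of 50 bp on either side of a summit that hold TGATTCAT, the word seen at the EGF and ERBB2 sites, by class of fold enrichment rank in the overexpressed HoxC5 and Pbx4 lists; points are windows at summits, bars their exact 95% binomial intervals, crosses are windows 1 kb to the right. The HoxC5 points fall from 26% to 12.7% and 3.61%, while the Pbx4 points lie between 6% and 3.20%.

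Of 51 other genes of the pathway, 48 had a HoxC5 peak and 49 a Pbx4 peak in their windows, and 13 had an endogenous peak of replicate 1, against the backgrounds of 87.8%, 93.1% and 17.2% of genes. None had a peak in replicate 2. Some of these peaks were also counted for a member, since the windows of GRB7 and EPGN overlap those of ERBB2 and EREG. The endogenous peak of GRB7 was the one inside IKZF3 already counted for ERBB2. Within 1 kb of a TSS there were peaks at 41 of the 51 for HoxC5, beside 55% of all protein-coding genes, and at 35 for Pbx4, beside 42%. The 18 brakes, which end or restrain receptor signalling by degradation, dephosphorylation or feedback, all had peaks of both factors, and 17 had a HoxC5 summit and 14 a Pbx4 summit within 1 kb of a TSS, read against the same 55% and 42%. No test was made of the brakes against other genes. Of these brakes 6 had an endogenous peak, namely ERRFI1, SPRED2, SPRY4, PTPN12, LRIG3 and SOCS3, the last with 4. Among 15 cascade kinases, GTPases and the transcription factor STAT3, 13 had HoxC5 and 14 had Pbx4 peaks, and STAT3 had neither. All 8 adaptors and exchange factors and all 5 genes for release of ligands had peaks of both. Within 1 kb of a TSS, HoxC5 had a summit at 8 of these 8 and 5 of these 5, and Pbx4 at 7 and 4. For the 15 cascade genes it was 10 with HoxC5 and 8 with Pbx4, and for the 5 other ligands 1 and 2. Of the 5 other ligands 4 had peaks of both, while NRG3, with a window of 1162 kb, had none in any list. The lists do not give DNA copy number, so an absence of peaks at STAT3 or NRG3 cannot be read as absence of binding.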

How the data were processed

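ChIP-Seq libraries of PC-3 cells numbered 8, of which 4 are ChIP libraries with a peak list each. The other 4, of input chromatin, went unused here. Per the authors' methods, BWA-MEM alignment to hg19 was followed by a filter on mapping quality (at least 10), removal of duplicates and MACS2 peak calling (q-value at most 0.05) on single libraries. The MACS2 version and the control of each call are not given in the sources used here. Deposited values were the peak interval, the offset of its summit, the fold enrichment (a ratio to local background), the −log10 of p and of q, and the caller's score. The highest q was 0.00997 in the overexpressed HoxC5 list but reached 0.0499 in another list, so the lists may not share 1 threshold. No list holds read totals, so no precision from depth can be given.

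Summits were placed against GENCODE 44 lifted to GRCh37, on chromosomes 1 to 22, X and Y. Overlap meant at least 1 bp. Words were sought on both strands within 50 bp of the summit and 1 kb to its right. Exact Clopper-Pearson intervals (95%) cover counting error only. No test was made, since each list is 1 library. The counting was tested on simulated data. Python 3.11.15 was used, with pandas 2.3.3, numpy 2.4.6, pysam 0.24.0, scipy 1.17.1 and matplotlib 3.10.9. Alternatives were other reaches, TSSs, thresholds, definitions of overlap and word windows, an equal list length and each endogenous replicate left out.

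The 10 members, the 51 other pathway genes and the 5 words were chosen with earlier results of these data known. Named were all members with their counts, their peak nearest to a TSS, their strongest peak and each endogenous peak, and other genes only from the pathway lists or as the nearest gene of a described peak. Other single peaks, TGATTCAT and the ERBB2 and EREG sequences of overexpressed HoxC5 were chosen after their values were seen.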

Additional observations from a re-analysis of the deposited data

How the results depend on the processing

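Of 51 alternative values, 38 stayed within the limits set for an unchanged result (a count within 1.5 times, a share within its interval) and 13 moved. With a reach of 10 kb, endogenous replicate 1 had 3 peaks at 3 genes, and the peak counts were 57 for overexpressed HoxC5 and 139 for Pbx4, since the windows were shorter. At a fold enrichment of at least 5 replicate 1 had 3 peaks at 3 genes, and at a q-value of at most 0.001 it also had 3 peaks at 3 genes. The share of HoxC5 peaks that overlap Pbx4 was 48.39% with summits at most 100 bp apart and 48.39% with the Pbx4 list cut to the length of the HoxC5 list. The share of HoxC5 summits with the AP-1 word was 11.83% within 25 bp, and that of Pbx4 summits was 8.095% within 25 bp and 27.14% within 100 bp, as a shorter or longer window holds fewer or more words. All 10 genes had peaks of both overexpressed factors with a reach of 100 kb and at the stricter fold and q limits, and with a reach of 10 kb it was 9 for each, AREG being without a peak. The count of genes was not run with the canonical TSS only. Without replicate 2 the share of endogenous peaks that overlap overexpressed HoxC5 was 80%, and without replicate 1 no value could be given, because replicate 2 had no peak in the windows. No paired analysis was possible because the results come from no test and the input libraries, which share replicate numbers with the endogenous libraries, were not used here.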
